A study of Mus musculus with 4 samples.

Results

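The genes described here are 10 genes of the NRF2 response and of peroxide defence: Nqo1, Gclm, Gclc, Slc7a11, Txnrd1, Srxn1, Prdx1, Prdx5, Gpx4 and Sqstm1. They were chosen by symbol, and all 10 were found among the 27998 genes that the 4 libraries share. The mice were wild-type C57BL/6 males, obtained at 8 weeks of age and matched for weight. They had then been fed for 6 weeks, either the control diet (NCD) or a diet without methionine and choline (MCD), and cells of their livers were sequenced in droplets, with 2 libraries per diet. The MCD diet is a standard mouse model of fatty liver with inflammation, in which the animals also lose weight. The sort kept live (7AAD-) CD45+ Ly6G- cells with intermediate CD11b, a gate meant for macrophages that derive from monocytes. The F4/80 level of that gate is given as low in one label and as high in another. The labels used here do not say whether a library holds a single mouse or several, so a p-value measures the spread between these libraries only, and since no label gives a batch, diet and batch cannot be told apart.

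NRF2, encoded by Nfe2l2, is a transcription factor that KEAP1 holds down by steering it to the proteasome. Oxidants and electrophiles release it, and together with small MAF proteins it then binds antioxidant response elements near the genes of glutathione synthesis, thioredoxin reduction and quinone reduction, where BACH1 competes as a repressor. Cystine enters through the transporter encoded by Slc7a11, the GCLC and GCLM subunits join its product cysteine to glutamate as the first step of glutathione synthesis, and peroxiredoxins and glutathione peroxidases use the reducing power to remove peroxides. In the liver this system is known for its part in handling bile acids, drugs and lipid peroxides.

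The promoters are shown because the antioxidant response element is the DNA element through which NRF2 acts on these genes. The core TGACNNNGC was searched on both strands of RefSeq promoter windows of 300 bases (250 before to 50 after the gene start, GRCm38.p6). Of the 10 genes, 9 were in that table with 14 windows, all except Gclc, and the windows of 4 genes held the core. It was present in 12.4% of all 32851 windows, and 14.0% of the 27025 genes had it in at least 1 window. Capitals mark the 9 matching bases, which in all 4 cases are the core read from the opposite strand. A match is a description of the letters in this window, and no match says nothing about elements farther from the start.
Gclm, chr3:122245393-122245461, core 134 bases before the start: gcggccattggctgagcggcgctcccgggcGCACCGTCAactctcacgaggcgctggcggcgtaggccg
Prdx1, chr4:116685436-116685504, core 133 bases before the start: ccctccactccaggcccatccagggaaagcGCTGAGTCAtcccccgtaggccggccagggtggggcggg
Txnrd1, chr10:82859084-82859152, 1 of 3 windows, core 92 bases before the start: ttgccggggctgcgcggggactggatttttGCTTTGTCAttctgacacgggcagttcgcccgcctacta
Srxn1, chr2:152105544-152105568, core 29 bases after the start: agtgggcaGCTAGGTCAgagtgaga
All 4 stretches are printed on the plus strand, which is the coding strand of these genes. With an A required after the last base, a longer form that 3.04% of all windows held, 1 of the 9 genes had a match. The other 6 genes are protein coding like these, and lie on chromosome 3 (Slc7a11, 49892526 to 50443614), chromosome 8 (Nqo1, 107388225 to 107403206), chromosome 9 (Gclc, 77754535 to 77794485), chromosome 10 (Gpx4, 80047166 to 80056439), chromosome 11 (Sqstm1, 50199366 to 50210827) and chromosome 19 (Prdx5, 6906697 to 6910106) in GENCODE M21.

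Of 12306 barcodes, 9609 had 200 genes or more and no more than 10% of their UMIs (unique molecular identifiers, 1 per captured transcript) from mitochondrial genes and were kept. The mitochondrial limit was exceeded by 37.2% and 33.6% of the barcodes of NCD 1 and NCD 2 and by 11.6% and 9.44% of those of MCD 1 and MCD 2. The NCD libraries held 7518597 and 7428431 UMIs and the MCD libraries 32975974 and 37772284, and the medians per retained cell were 2173 and 2253.5 against 12038 and 12300. Between 10 and 22 barcodes per library also occurred in another library. Cells were clustered within each diet and named from marker lists. With all libraries clustered together, cells of the same name fell mostly into separate clusters by diet. Ly6Chi-like monocytes then made up a cluster of 876 NCD and 3 MCD cells and further ones of 3 and 1199 and of 10 and 1086, and the NK-like cells formed clusters of 118 and 1 and of 4 and 88, while 59 and 171 migratory dendritic cell-like cells shared 1 cluster. A shared name therefore rests on the marker lists and not on common clusters, and differences between diets within a class and differences in what the class holds cannot be told apart. The Ly6Chi-like monocytes (392, 424, 672 and 834 cells in NCD 1, NCD 2, MCD 1 and MCD 2), the Ly6Clo-like monocytes (113, 147, 77 and 117), the C1q macrophage-like cells (69, 57, 228 and 194) and the lipid-associated macrophage-like cells (0, 0, 101 and 56) are called the monocytes and macrophages below. Levels are given as CPM, the UMIs of a gene per 1000000 UMIs of the same cells and library. Fold changes are MCD over NCD on a log2 scale, relative to the typical gene of the same cells (TMM scaling), and rest on an edgeR quasi-likelihood test of UMIs summed per library with Benjamini-Hochberg adjustment over all genes tested. A gene is said to be higher or lower, or to have risen or fallen, where its adjusted p was under 0.05.

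In the monocytes and macrophages together, 9 of the 10 genes were higher on MCD and none was lower. Over all 10793 genes tested there, 37.5% passed, 19.7% as higher and 17.8% as lower. The median log2 fold change of the 10 genes was 1.97, against 0.04 over all genes. The rises ran from 0.87 ± 0.29 (SE) for Gclc to 2.96 ± 0.15 for Gpx4, and in every one of the 10 genes both MCD libraries had a higher CPM than both NCD libraries, as did 54.8% of all genes tested. Scaling to library totals moves the median of all genes to 0.38 and the split of all calls from 2128 higher and 1919 lower to 3724 and 1015, and 10 of the 10 genes were then higher. The 2 diets also differed in depth (median 1928 and 2014 UMIs per cell on NCD, 13879 and 12992 on MCD), in mitochondrial share (7.56% and 7.30% against 3.59% and 3.32%) and in ribosomal protein share (28.7% and 27.8% against 18.8% and 18.7%). With each cell thinned to 1000 UMIs, 8 of the 10 were higher, while Gclc (0.49, adjusted p = 0.25) did not pass and Nqo1 could not be tested. The part of the mitochondrial and ribosomal shares in these values was not tested.

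The glutathione genes come first. Slc7a11, the cystine carrier, stood at 32.0 and 51.7 CPM in the NCD libraries and at 297 and 202 in the MCD libraries. Its log2 fold change was 2.21 ± 0.23 (adjusted p = 4.21e-05), and the lower MCD library was well above the higher NCD one. Gclm, the modifier subunit of glutamate-cysteine ligase, had 13.1 and 27.3 CPM on NCD and 79.0 and 52.0 on MCD, a log2 fold change of 1.32 ± 0.30 (adjusted p = 0.00667). Gclc, the catalytic subunit, had 22.1 and 26.6 CPM on NCD and 71.7 and 42.6 on MCD, with the smallest and least certain rise of the 9 (0.87 ± 0.29, adjusted p = 0.0388). For all 3 genes MCD 1 was the higher of the MCD libraries. Without NCD 1, neither Gclm (0.95, adjusted p = 0.118) nor Gclc (0.79, adjusted p = 0.254) passed, and Gclc also lost its call without NCD 2 (1.03, adjusted p = 0.197) or MCD 1 (0.44, adjusted p = 0.0723).

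The thioredoxin branch showed the same order of libraries. Txnrd1, the cytosolic thioredoxin reductase, had 21.3 and 38.04 CPM on NCD and 146 and 110 on MCD (log2 fold change 1.74 ± 0.22, adjusted p = 2.02e-04). Srxn1 encodes sulfiredoxin, which repairs peroxiredoxins whose active cysteine has been over-oxidised. It was scarce on NCD, with 2 and 8 UMIs in all, or 1.64 and 5.74 CPM, against 617 and 477 UMIs, or 40.4 and 29.5 CPM, on MCD. The ratio of pooled CPM was 9.09 with a 95% counting interval of 4.92 to 19.0, and the fitted log2 fold change was 2.84 ± 0.40 (adjusted p = 3.83e-04). Intervals of this kind cover counting error only.

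Prdx1, a cytosolic peroxiredoxin and itself an NRF2 target, had 357 and 419 CPM on NCD and 1236 and 766 on MCD. Its log2 fold change was 1.01 ± 0.18 (adjusted p = 0.0014), with the MCD libraries differing from each other by more than the NCD libraries did. Without NCD 1 its adjusted p was 0.0533, at a fold change of 0.94. Prdx5, a peroxiredoxin of mitochondria, peroxisomes and cytosol, stood at 196 and 188 CPM on NCD and 1317 and 1144 on MCD (2.33 ± 0.10, adjusted p = 1.08e-07), a tight pair of groups far from each other. Gpx4, the glutathione peroxidase that reduces lipid hydroperoxides in membranes and guards against ferroptosis, had 32.0 and 44.5 CPM on NCD and 360 and 400 on MCD (2.96 ± 0.15, adjusted p = 3.6e-07).

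Gpx4 and Prdx5 had the highest GC content of the 10 genes, 60.2% and 55% of the last 1000 transcript bases, and fold changes in these data rose with GC content across genes. With that trend removed, the fold change of Gpx4 was 2.19 and that of Prdx5 1.79, and both still passed. The last 500 bases of the Gpx4 transcript are 99.8% identical to a stretch of Gpx4-ps2, which is not in the feature tables, so the Gpx4 count is uncertain to the extent that reads were shared between them. Prdx5 overlaps Trmt112, which lies on the opposite strand and had 139, 146, 1935 and 1892 UMIs in these cells, and no source used here says whether strand was used in counting.

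Sqstm1 encodes p62, an autophagy receptor that can sequester KEAP1 and is in turn an NRF2 target. It had 50 and 56.0 CPM on NCD and 207 and 203 on MCD, a log2 fold change of 1.60 ± 0.12 (adjusted p = 5.4e-06). The libraries of a diet lay close together here. Of its last 500 bases, 333 also belong to Mrnip on the opposite strand, which had 0, 2, 23 and 14 UMIs. Nqo1, the quinone reductase often used as a readout of NRF2, was the gene that did not pass. It had 0 and 1 UMI in the NCD libraries and 63 and 43 in the MCD libraries, that is 0, 0.718, 4.12 and 2.66 CPM, and the pooled ratio of 8.80 had a 95% counting interval of 1.55 to 351 (edgeR adjusted p = 0.06).

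**Figure D1:**
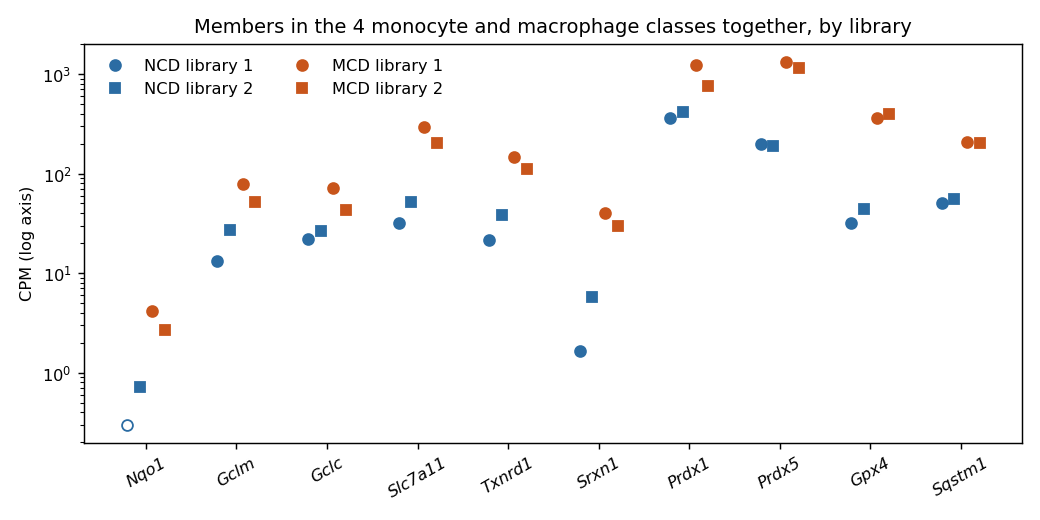
Level of each of the 10 genes in the monocytes and macrophages, in CPM on a log axis, with 1 point per library (NCD and MCD in different colours, library 1 as circles and library 2 as squares, and an open symbol at the bottom for the library without a Nqo1 UMI). Both MCD points lie above both NCD points for every gene, with the widest gap for Gpx4, from 44.5 to 360 CPM.

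Cells with at least 1 UMI of a gene were counted after thinning to 1000 UMIs per cell, which left out 8 and 4 cells of the NCD libraries and 3 and 1 of the MCD libraries. Prdx5 was found in 14.1% and 13.9% of the NCD cells and in 65.5% and 60.1% of the MCD cells, with exact 95% Clopper-Pearson intervals of at most 16.9% or 17.3% on NCD and at least 57.2% on MCD. Gpx4 was found in 2.65% and 3.85% against 28.5% and 33.2%, and Slc7a11 in 2.30% and 4.01% against 15.9% and 13.3%. Prdx1 was the most widespread on NCD (29.3% and 28.8%, against 42.2% and 35.8% on MCD). Srxn1 was found in 0 of 566 cells of NCD 1, which allows a share of up to 0.53%, in 0.321% of NCD 2, and in 3.26% and 1.92% on MCD. The MCD libraries were above the NCD libraries for 10 of the 10 genes at 1000 UMIs, at 500 UMIs and without thinning, and so were 48.4% of all genes tested at 1000 UMIs. An exact permutation test of 2 libraries against 2 cannot give less than p = 0.33. NK-like cells were set beside them for comparison. Whether a UMI in an NK-like cell was stray RNA or a transcript of that cell was not tested. With 1000 UMIs or more there were 39, 70, 50 and 38 of them in NCD 1, NCD 2, MCD 1 and MCD 2. These had medians of 1525, 1582.5, 6394.5 and 6196.5 UMIs before thinning, against 1408, 1274.5, 6394.5 and 6043 over all NK-like cells. None of them held a Slc7a11 UMI, which allows shares of up to 7.69%, 4.29%, 6.00% and 7.89%, and 5.13%, 2.86%, 14.0% and 13.2% held a Prdx5 UMI. Their shares for Sqstm1 (10.3%, 7.14%, 16% and 21.1%) and Gclc (2.56%, 5.71%, 2.00% and 5.26%) were above those of the monocytes and macrophages in 3 of the 4 libraries each. The shares of these 2 genes therefore do not stand clear of those in NK-like cells. For Gpx4 the NK-like shares were 15.4%, 5.71%, 24% and 2.63%, above those of the monocytes and macrophages in both NCD libraries and below them in both MCD libraries. The Gpx4 shares on NCD therefore do not stand clear of those in NK-like cells. In 1 NCD library each, the NK-like share was also the higher one for Txnrd1 (5.13% in NCD 1), Gclm (2.86% in NCD 2) and Srxn1 (2.86% in NCD 2).

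**Figure D2:**
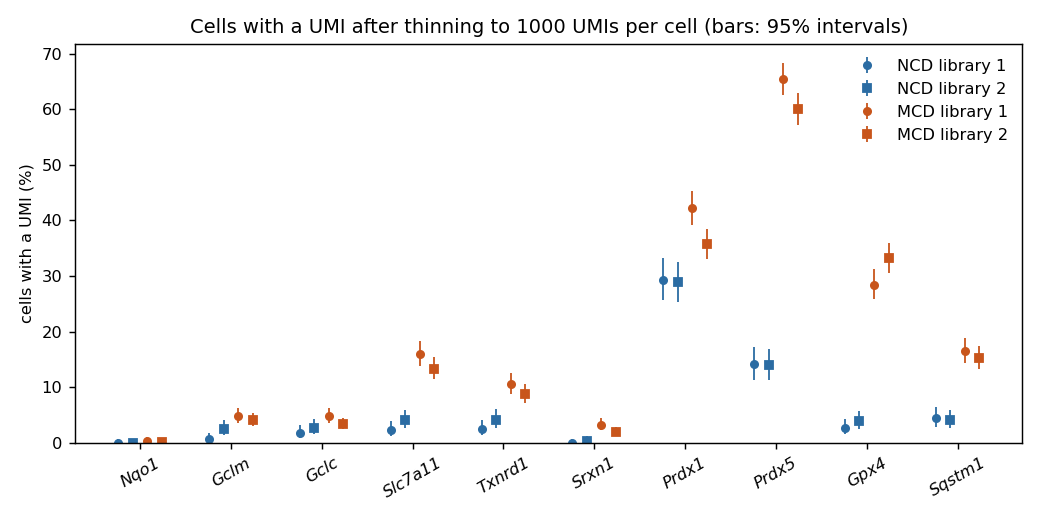
Percent of monocytes and macrophages with at least 1 UMI of each gene after thinning every cell to 1000 UMIs, by library (points) with exact 95% intervals (bars). Prdx5 reaches 65.5% and 60.1% on MCD from 14.1% and 13.9% on NCD, whereas Nqo1 stays at or under 0.372% in every library.

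The lipid-associated macrophage-like class occurred on MCD alone and weighed heavily in the sums of several of the genes. It is the class that resembles macrophages of fatty tissue, with Spp1, Gpnmb, Cd63 and Lpl among its leading genes, and Prdx1 and Gclm were also among its 10 leading genes. Its levels are therefore a description, since the genes helped to form the cluster. It made up 9.37% and 4.66% of the monocytes and macrophages of MCD 1 and MCD 2 and 10.6% and 5.37% of their UMIs. The same cells held 85.7% and 67.4% of the Nqo1 UMIs, 62.1% and 49.9% of those of Srxn1, 59.5% and 39.6% of those of Prdx1, and 58.6% and 42.2% of those of Gclm. They held 46.3% and 31.0% for Txnrd1, 45.6% and 28.3% for Gclc, 42.3% and 29.6% for Slc7a11 and 32.9% and 17.0% for Sqstm1. Prdx5 (17.1% and 7.60%) was nearer to the share of all UMIs, and Gpx4 (10.5% and 4.17%) was at or under it.

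The levels behind these shares are set beside those of the MCD Ly6Chi-like monocytes. Prdx1 stood at 6918 and 5652 CPM, 16.5 and 14.3 times the level in the Ly6Chi-like cells of the same library. Gclm (436 and 409 CPM) was 17.5 and 17.3 times as high, and Srxn1 (236 and 274 CPM) was 34.7 and 30.5 times as high. The ratios were 11.2 and 10.7 for Txnrd1, 10.0 and 8.08 for Gclc, 9.48 and 9.49 for Slc7a11 and 5.84 and 4.51 for Sqstm1. For Prdx5 they were only 1.87 and 1.43. Gpx4, with 354 and 311 CPM, was lower there than in the Ly6Chi-like cells, at 0.845 and 0.663 of their level. Nqo1 stood at 33.3 and 33.4 CPM, 20.3 and 12.4 times its level in the C1q macrophage-like cells. After thinning, 92.1% and 87.5% of these cells held a Prdx1 UMI, 59.4% and 62.5% a Slc7a11 UMI and 42.6% and 39.3% a Txnrd1 UMI.

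The cells were also clustered without the 10 genes and without the other listed genes. In that clustering, 147 of the 157 lipid-associated macrophage-like cells fell into 1 MCD cluster of 560 cells, led by C1qb, C1qa, Ccl24 and C1qc, to which the marker rule gave no name. Of the 15 MCD clusters, it ranked first in mean level for Prdx1 (2754 and 1891 CPM), Gclm (179 and 140), Gclc (139 and 82.2), Txnrd1 (316 and 254) and Srxn1 (102 and 90.4). It ranked second for Slc7a11 after the eosinophil-like cells, the third for Nqo1, Prdx5 and Sqstm1, and eleventh for Gpx4.

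When the lipid-associated macrophage-like class was left out of the sum, 6 of the 10 genes were higher on MCD, in place of 9. Over all 10695 genes tested in that fit 36.3% passed, 19.0% as higher. Gclm (0.39 ± 0.26, adjusted p = 0.263), Gclc (0.29 ± 0.23, adjusted p = 0.345) and Prdx1 (0.09 ± 0.10, adjusted p = 0.516) no longer passed, and Nqo1 had too few UMIs to be tested. The class had cells on MCD alone and the genes helped to form it. A smaller fold change for genes that are high in it is therefore built into this fit. Srxn1 fell from 2.84 to 1.75, Txnrd1 from 1.74 to 1.14 and Slc7a11 from 2.21 to 1.67, while Gpx4 (2.97), Prdx5 (2.26) and Sqstm1 (1.31) moved little. Giving equal weight to the 3 classes that both diets have left the same 6 genes higher, with Gclm at 0.45, Gclc at 0.04 and Prdx1 at 0.17. Of all genes 29.3% passed there, 16.3% as higher. With the clusters made without the listed genes, where no MCD cluster took the C1q name and the 560-cell cluster was outside the sum, 5 of the genes were higher and Prdx1 was lower (−0.29, adjusted p = 0.0398), with Gclm at −0.28 and Gclc at −0.03. With these clusters 38.7% of all genes passed, 20.2% as higher. The 51 and 47 C1q macrophage-like cells of NCD 1 and NCD 2 stayed in that sum, so its class makeup differed between the diets. The part of this difference in these values was not tested.

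**Figure D3:**
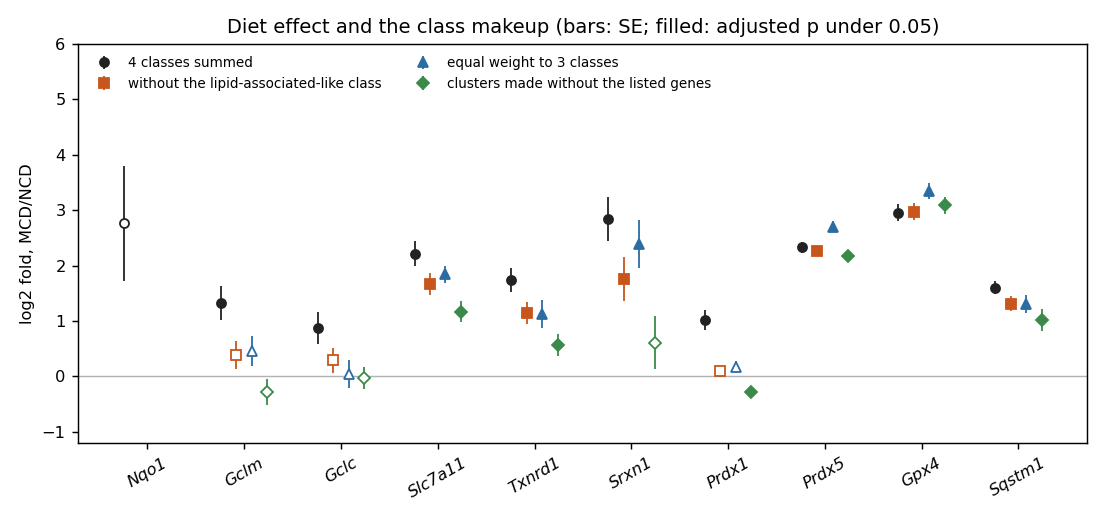
Log2 fold change, MCD over NCD, of each gene in the monocytes and macrophages as summed (circles), without the lipid-associated macrophage-like class (squares), with equal weight to the 3 shared classes (triangles) and with clusters made without the listed genes (diamonds), with SE bars and filled symbols where the adjusted p was under 0.05. Gpx4 and Prdx5 stay near 3 and above 2 under all 4, whereas Gclm, Gclc and Prdx1 drop to 0.45 or less once the lipid-associated macrophage-like class has no part in the sum. The lipid-associated macrophage-like class had cells on MCD alone and the genes helped to form it, so leaving it out lowers genes that are high in it. The sums behind the diamonds hold C1q macrophage-like cells on NCD alone.

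Within the Ly6Chi-like monocytes, 9 of the 10 genes could be tested, of which 4 rose and 1 fell; over all 9935 genes 28.9% passed, 15.2% as higher and 13.7% as lower. Gpx4 had 38.2 and 55.5 CPM on NCD and 419 and 469 on MCD (2.73 ± 0.17, adjusted p = 1.3e-06), and Prdx5 had 243 and 219.9 against 1133 and 1136 (1.80 ± 0.11, adjusted p = 1.41e-06). Slc7a11 had 25.9 and 58.6 CPM on NCD and 125 and 117 on MCD (0.99 ± 0.23, adjusted p = 0.00941), and Sqstm1 had 33.3 and 47.1 against 109.9 and 143 (1.14 ± 0.22, adjusted p = 0.00316). In all 4 of these genes both MCD libraries were above both NCD libraries, as they also were for Gclc and Txnrd1, 6 of the 10 genes, and for 61.8% of all genes tested in these cells. Slc7a11 did not pass without NCD 1.

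Prdx1 was the gene that fell in these monocytes, by 0.36 on the log2 scale (SE 0.11, adjusted p = 0.0331). Its CPM, 331 and 410 on NCD and 420 and 395 on MCD, overlapped between the diets, and scaled to library totals the change was 0.13 in the other direction. That scaling moves the median of all genes in these cells from 0.07 to 0.57 and the split of calls from 1510 higher and 1361 lower to 3782 and 648, and it gave 6 of the 10 genes higher and none lower, adding Gclc and Txnrd1. Gclm (−0.24), Gclc (0.38), Srxn1 (0.32) and Txnrd1 (0.57, adjusted p = 0.0586) did not pass in the TMM-scaled fit. Gclm stood at 12.3 and 27.2 CPM on NCD and 24.9 and 23.6 on MCD in these cells, with the NCD libraries on either side of the MCD libraries. Srxn1 had 8 UMIs on NCD and 159 on MCD, a ratio of 1.76 with a counting interval of 0.872 to 4.15.

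In the Ly6Clo-like monocytes, the patrolling cells of the bloodstream, 7 of the 10 genes could be tested and 4 rose, Gpx4, Prdx5, Slc7a11 and Sqstm1, where 23.6% of all 5546 genes passed (12.2% higher, 11.3% lower). Gpx4 had 4.36 and 26.4 CPM on NCD, from 1 and 8 UMIs, and 289 and 306 on MCD (3.84 ± 0.35, adjusted p = 7.1e-07). Prdx5 had 91.6 and 119 against 882 and 895 (2.77 ± 0.16, adjusted p = 2.99e-09), with each diet's libraries close together. Slc7a11 (1.29 ± 0.37, adjusted p = 0.0204) and Sqstm1 (0.95 ± 0.33, adjusted p = 0.0476) passed by less. Neither passed without NCD 1 or without NCD 2, fits in which a smaller share of all genes passed as well. Gclc (−0.54), Prdx1 (−0.07) and Txnrd1 (1.16) did not pass. Both MCD libraries were above both NCD libraries for 7 of the 10 genes, and for 46.7% of all genes tested. Gclm, which had too few UMIs for the test, lay the other way, at 17.4 and 23.1 CPM on NCD and 5.38 and 14.1 on MCD, from 4, 7, 4 and 18 UMIs.

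The diet effect itself was compared between the 2 monocyte classes in 1 fit. Prdx5 was the gene among the 9 tested whose rise differed, larger in the Ly6Clo-like than in the Ly6Chi-like monocytes by 0.97 ± 0.21 (adjusted p = 0.00188), where 4.30% of all 7353 genes passed, 3.41% in that direction and 0.884% in the other. With each cell thinned to 1000 UMIs the difference had the same size, 0.97, with an adjusted p of 0.17. The level of Prdx5 on MCD was higher in the Ly6Chi-like cells (1133 and 1136 CPM) than in the Ly6Clo-like cells (882 and 895 CPM), and the same held on NCD. For Gpx4 the difference was 1.14 ± 0.45 and did not pass (adjusted p = 0.176). What the Ly6Clo-like class held also differed between the diets. Its 12 Ly6Chi monocyte markers summed to 7438 and 7372 CPM on NCD and 17394 and 20034 on MCD, with 8 of 11 tested higher and 1 lower. In the Ly6Chi-like class they summed to 21346.5 and 21323.7 CPM against 35397.2 and 41170.6. The part of these marker levels in the Prdx5 difference was not tested.

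In the C1q macrophage-like cells, 9 of the genes could be tested and 8 rose, all except Gclc (0.44 ± 0.47, adjusted p = 0.583), where 16.5% of all 8709 genes passed (8.97% higher, 7.57% lower). Prdx5 had 117 and 119 CPM on NCD and 1514 and 1140 on MCD (3.54 ± 0.21, adjusted p = 1.35e-09), its largest fold change among the monocyte and macrophage classes. Slc7a11 had 61.1 and 59.5 CPM against 385 and 276 (2.50 ± 0.29, adjusted p = 7.17e-06), and Gpx4 38.9 and 7.43 against 227 and 240.5 (3.25 ± 0.36, adjusted p = 3.99e-06). The NCD levels of Gpx4 came from 7 and 1 UMIs. Txnrd1 had 38.9 and 89.2 CPM against 174 and 155 (1.48 ± 0.31, adjusted p = 0.00296), and Sqstm1 111 and 74.3 against 280.5 and 280.2 (1.61 ± 0.23, adjusted p = 8.1e-05). No NCD library reached an MCD library in any of these 5 genes, nor in Nqo1, Gclm, Srxn1 and Prdx1, 9 of the 10 in all, against 33.0% of all genes tested.

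Gclm in these macrophage-like cells had 11.1 and 37.2 CPM against 72.7 and 64.5 (1.67 ± 0.47, adjusted p = 0.0204) and Prdx1 544 and 699 against 949 and 842 (0.59 ± 0.15, adjusted p = 0.0125). Srxn1 rested on 0 and 1 UMI on NCD and 289 on MCD, with a pooled ratio of 12.98 and a counting interval of 2.31 to 515. Without NCD 1 the median log2 fold change of the 9 genes tested was 2.05. The calls of Gclm, Txnrd1, Srxn1 and Prdx1 were lost in that fit, in which a smaller share of all genes passed as well. After thinning, Slc7a11, Prdx5, Sqstm1 and Gpx4 passed out of 6 tested, beside 24.1% of all genes. The class differed in kind between the diets. Kupffer cell genes such as Vsig4, Slc40a1 and Cd5l were among its leading genes on NCD and Axl, Acp5 and Gdf15 on MCD, and the summed level of the 10 Kupffer cell markers was 466 and 2282 CPM on NCD and 23.2 and 36.4 on MCD. The 12 markers of lipid-associated macrophages summed to 1382 and 1650 CPM against 3775 and 4119 in this class, with 8 of 12 higher, and the 12 Ly6Chi monocyte markers to 5229 and 5091 against 13432 and 13587, also with 8 of 12 higher. The part of these differences in the 8 rises was not tested.

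**Figure D4:**
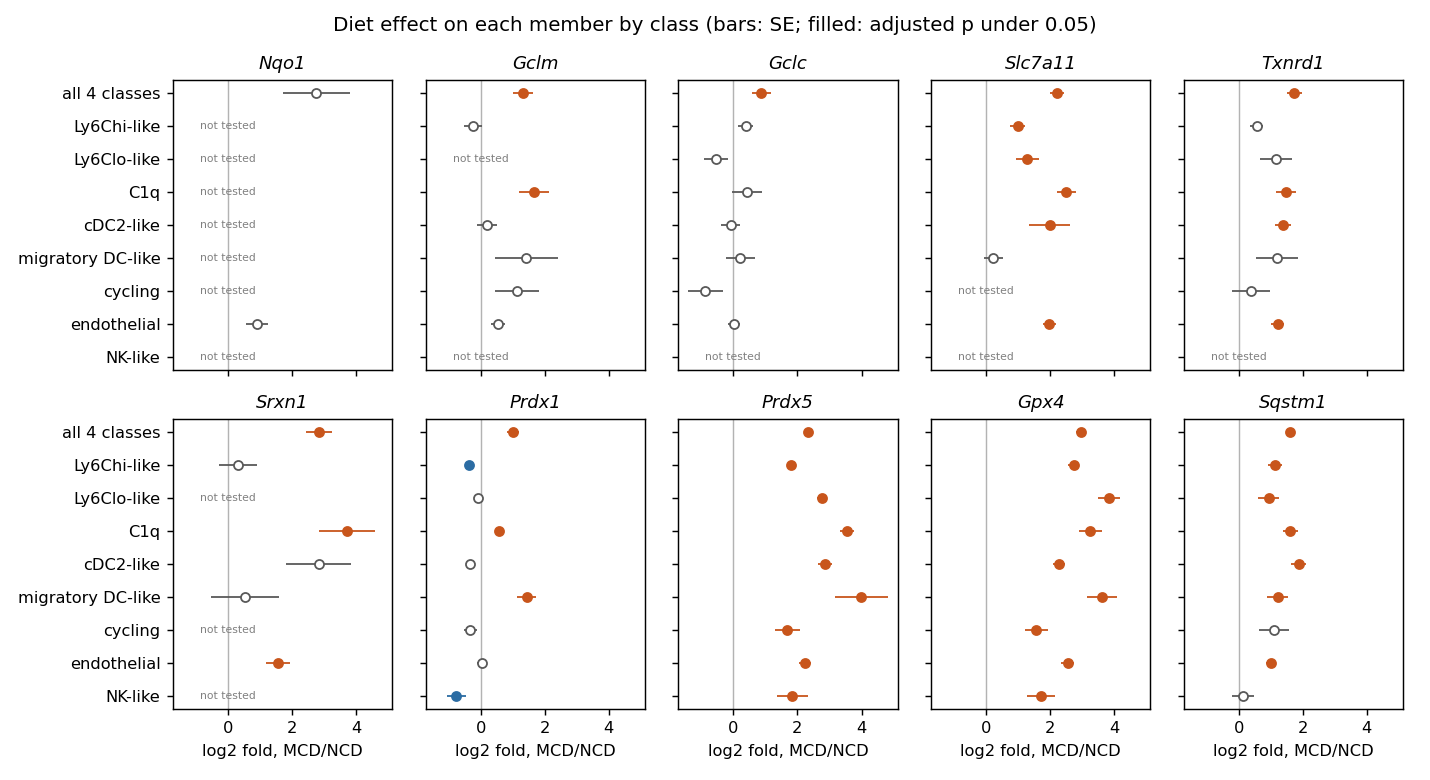
Log2 fold change, MCD over NCD, of each gene (1 panel each) in the classes that both diets have, with SE bars and filled symbols where the adjusted p was under 0.05. In this TMM-scaled fit Gpx4 and Prdx5 are filled and right of 0 in every class, though not in the cycling and NK-like cells once the GC trend is removed, whereas Gclc is filled in none of the single classes.

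Another 5 classes had at least 20 cells in every library, and 20 of the 39 tests of these genes that could be made in them passed, 19 as higher and 1 as lower. In the cDC2-like dendritic cells (29.3% of all genes passed, 15.1% as higher and 14.2% as lower) Gpx4 (2.28 ± 0.19), Prdx5 (2.86 ± 0.22), Sqstm1 (1.87 ± 0.23), Slc7a11 (1.99 ± 0.64) and Txnrd1 (1.37 ± 0.25) rose. In the endothelial-like cells (29.3%, 16.3% as higher and 13.1% as lower) these 5 rose too, by 2.55, 2.23, 1.01, 1.97 and 1.22, together with Srxn1 (1.57 ± 0.38, adjusted p = 0.00669). The Srxn1 call was lost under DESeq2 and without MCD 2, and that of Slc7a11 in the cDC2-like cells without NCD 1 or without NCD 2. In the migratory dendritic cell-like cells (9.81%, 5.60% as higher and 4.21% as lower) Gpx4, Prdx5, Prdx1 and Sqstm1 rose, Prdx5 and Sqstm1 not under DESeq2, Prdx1 not without NCD 1, and Sqstm1 neither without NCD 2 nor with the GC trend removed. The 40 and 21 migratory dendritic cell-like cells on NCD held only 97804 and 48599 UMIs of all genes. Their levels ran from 0 to 40.9 CPM for Gpx4 and from 0 to 10.2 CPM for Prdx5, so both calls there rest on few NCD UMIs. In the cycling cells (18.3%, 8.46% as higher and 9.80% as lower) Gpx4 (1.57 ± 0.35) and Prdx5 (1.68 ± 0.39) rose. Neither passed with the GC trend removed (0.87 and 1.09, edgeR adjusted p = 0.121 and 0.0735) or without NCD 2 (1.06 and 1.08). The cycling class also differed in kind between the diets, since the dendritic cell genes Xcr1, Wdfy4 and Irf8 were among its 10 leading genes on MCD but not on NCD. NK-like cells (29.9%, 12.9% as higher and 17.0% as lower) showed a rise of Gpx4 (1.71 ± 0.43) and Prdx5 (1.85 ± 0.48) and a fall of Prdx1 by 0.76 (SE 0.30, adjusted p = 0.0463). Both rises in the NK-like cells were lost under DESeq2 (adjusted p = 0.122 for Gpx4 and 0.134 for Prdx5), with the GC trend removed (0.97 and 1.27, edgeR adjusted p = 0.104 and 0.0523) and without NCD 2 (0.65 and 1.18). Without MCD 1 their sizes were 1.45 and 2.03, and that fit cannot decide on a call, since it made none among all genes. The fall of Prdx1 was lost under DESeq2, with the GC trend removed, without NCD 1, without MCD 2 and with library totals (−0.58, edgeR adjusted p = 0.148). In the TMM-scaled fit, then, Gpx4 and Prdx5 passed as higher in the 8 single classes tested and Gclc in none, but with the GC trend removed Gpx4 and Prdx5 passed in 6 of them, all except the cycling and NK-like cells, and Gclc passed in the Ly6Chi-like monocytes (0.74, adjusted p = 0.0462), as it did there with library totals (0.88). Over all retained cells, where 49.1% of all genes passed (26.1% as higher, 22.9% as lower), 8 of the 10 genes were higher, all except Gclc and Nqo1.

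The order of the MCD classes differed from gene to gene. The lipid-associated macrophage-like class came first for 8 of the 10 genes, with both of its libraries above both libraries of the class in second place. The C1q macrophage-like cells came second for Gclm (68.6 ± 5.80 CPM, SD, n = 2), Srxn1 (41.1 ± 4.09) and Prdx1 (896 ± 75.6), close to the endothelial-like cells for Gclm (61.3 ± 13.9), the eosinophil-like cells for Srxn1 (37.9 ± 13.5) and the neutrophil-like cells for Prdx1 (810.4 ± 6.90). The first 2 of these pairs overlapped over libraries and the last did not. Eosinophil-like cells, found on MCD alone under that name, came second for Slc7a11 (619 and 572 CPM), Txnrd1 (199 and 221) and Sqstm1 (384 and 507), and had the lowest Prdx1 of all (156 and 157). Endothelial-like cells came second for Nqo1, with 15.4 and 21.6 CPM on MCD and 9.21 and 9.64 on NCD, a difference that did not pass (0.91 ± 0.34, adjusted p = 0.0552).

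For Prdx5 the neutrophil-like cells (1918 and 2087 CPM) and the lipid-associated macrophage-like cells (2119 and 1621) overlapped at the top. The neutrophil-like name rests on 136 cells that passed a Ly6G- gate, which would remove neutrophils. Beside S100a8, S100a9, Camp, Ngp and Lcn2, their 10 leading genes hold 4 haemoglobin genes, and at a clustering resolution of 0.5 the cluster with these leading genes, of 203 cells, took no name. An unnamed MCD cluster of 678 cells, led by the inflammatory genes Cxcl10, Saa3, Cxcl2 and Clec4e, came next with 1794 and 1551 CPM, and Slc7a11 was also high there (376 and 346), after the lipid-associated macrophage-like and eosinophil-like cells. Gpx4 had the flattest profile on MCD. Its 4 highest classes, the Ly6Chi-like (444 ± 34.8), eosinophil-like (424 ± 42.3), neutrophil-like (421 ± 41.5) and endothelial-like cells (417 ± 6.70), overlapped over libraries. NK-like cells had no UMI of Slc7a11 or Nqo1 in any of the 4 libraries.

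**Figure D5:**
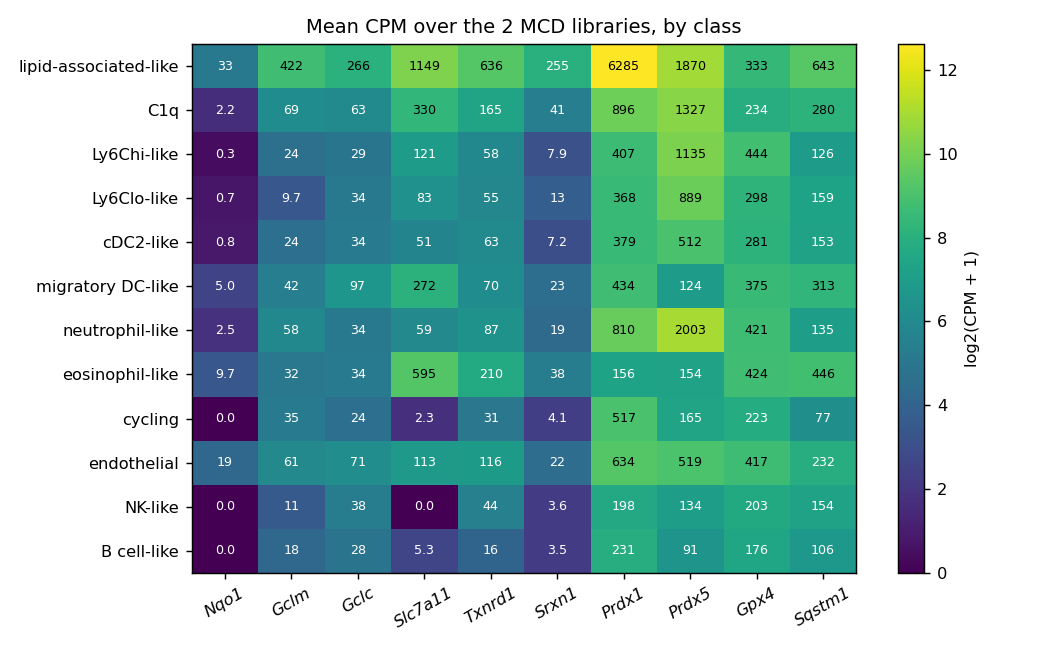
Mean CPM over the 2 MCD libraries of each gene (columns) in each named class (rows), printed in the cells and coloured by log2(CPM + 1). The lipid-associated macrophage-like row is the highest of its column for 8 genes, reaching 6285 for Prdx1, while Prdx5 is highest in the neutrophil-like row and Gpx4 varies from 176 to 444.

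Across the 42 sums of class by library, the genes fell into neighbourhoods, given here as Pearson correlations of log2(CPM + 20) with no test, since the sums share libraries, depth and diet. Txnrd1 and Srxn1 had r = 0.87 with each other, Gclm and Srxn1 0.83 and Gclm and Prdx1 0.83, whereas Gclc and Gpx4 had the lowest value of all pairs, 0.20. Among 5592 other genes, those most like Gclm were Gdf15 (0.85) and Gpnmb (0.85), those most like Txnrd1 were Rab20 (0.87) and Gdf15 (0.86), and those most like Srxn1 were Alas1 (0.88) and Gdf15 (0.85). Prdx1 was most like Lipa (0.92) and Clec4n (0.87), Slc7a11 most like Il1rn (0.91) and Ptafr (0.84), and Sqstm1 most like Lilr4b (0.86) and Pnrc1 (0.83). Nqo1 was nearest to Vat1 (0.84) and Mmp14 (0.75) and Gclc to Anxa4 (0.77) and Mmp14 (0.76). Prdx5 had Pgd (0.93), an enzyme of the pentose phosphate pathway, and Chmp4b (0.92), and Gpx4 had Fkbp8 (0.90) and Ccdc9 (0.87).

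Regulators of NRF2 were counted in the monocytes and macrophages against the same background of all genes there, 19.7% higher and 17.8% lower. Of 11 on the list, 4 were higher and 3 lower, with a median log2 fold change of −0.04 against 0.04 over all genes tested. The counts were 4 higher and none lower when scaled to library totals and 3 higher and none lower with the GC trend removed. Nfe2l2, which encodes NRF2, had 266 and 273 CPM on NCD and 557 and 490 on MCD (0.61 ± 0.09, adjusted p = 6.8e-04). Keap1 had 21.3 and 8.61 CPM against 36.3 and 32.8 (0.89 ± 0.29, adjusted p = 0.0322), a call lost without the lipid-associated macrophage-like class and with the GC trend removed. The small MAF genes Maff (2.09 ± 0.30) and Mafg (0.76 ± 0.14) were higher, Mafg not with the GC trend removed. Bach1, the repressor, had 219 and 228 CPM against 195 and 242, which overlap, and was lower relative to the typical gene by 0.38 (SE 0.13, adjusted p = 0.0381), a call lost with library totals, after thinning and without the lipid-associated macrophage-like class, and turned in sign with the GC trend removed. Rbx1 fell by 0.38 and Gsk3b by 0.51, and both calls were lost with library totals and with the GC trend removed. In the Ly6Chi-like monocytes Nfe2l2 rose (0.36 ± 0.11, adjusted p = 0.0274), Bach1 was lower by 0.41 with overlapping CPM (adjusted p = 0.0455) and Keap1 did not pass (0.75, adjusted p = 0.091). In the Ly6Clo-like monocytes Nfe2l2 (0.38), Keap1 (1.85) and Bach1 (−0.20) did not pass.

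Of 20 other NRF2 targets, 18 could be tested in the monocytes and macrophages and 14 were higher and 1 lower, against 19.7% and 17.8% of all genes, with a median of 0.84. Ftl1, the ferritin light chain, rose from 820.5 and 754 CPM to 7000.0 and 6599 (2.76 ± 0.08, adjusted p = 4.13e-08). Hmox1, haem oxygenase, had 84.4 and 167 CPM on NCD and 509 and 525 on MCD (1.68 ± 0.20, adjusted p = 1.37e-04). Slc48a1, which moves haem out of lysosomes, rose by 2.06 ± 0.21 and Osgin1 by 2.80 ± 0.57. Gstp1, a glutathione S-transferase, was the target that fell, from 168 and 151 CPM to 79.3 and 62.3, by 1.52 on the log2 scale (SE 0.14). Library totals gave 15 higher and 1 lower.

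Of 12 other peroxide and superoxide enzymes, 9 were tested, and 6 were higher and 3 lower, against 19.7% and 17.8% of all genes, with a median of 0.56. The mitochondrial superoxide dismutase Sod2 rose (1.54 ± 0.13) from 59.0 and 66.8 CPM to 256 and 211, while the cytosolic Sod1 fell by 1.11 (SE 0.10), from 244 and 249.8 CPM to 149.7 and 142. Prdx4, the peroxiredoxin of the endoplasmic reticulum, rose (0.86 ± 0.21), though not after thinning, whereas Prdx2 fell by 0.67 and catalase (Cat) by 0.68, the latter a call lost with library totals, which gave 6 higher and 2 lower. Gpx3, the secreted glutathione peroxidase, had no UMI in either NCD library and 128 and 109 on MCD, at least 6.56-fold higher against a floor of 3 UMIs over the NCD libraries together. The list's median is the same with Gpx3 at that bound.

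Among 16 tested of 17 thioredoxin and glutaredoxin genes, 6 were higher and 4 lower (19.7% and 17.8% over all genes, median 0.39), and 10 and 2 with library totals. Sesn2 (2.32 ± 0.44), Nxn (1.75 ± 0.53) and Txnl1 (1.08 ± 0.18) rose. The thioredoxin inhibitor Txnip fell by 0.95 (SE 0.10), Glrx2 by 1.21, Sesn1 by 0.79 and Txndc17 by 0.59, the last pair not with library totals and Sesn1 also not after thinning or with the GC trend removed. Of 21 glutathione supply and use genes 14 were tested, 4 higher and 4 lower (19.7% and 17.8% over all genes, median −0.08), and 5 and 1 with library totals. Gss, which encodes the enzyme of the second step of glutathione synthesis, rose from 6.56 and 7.18 CPM to 25.1 and 22.9 (1.45 ± 0.26, adjusted p = 0.00164), as did the glutathione conjugate exporter Abcc1 (1.21 ± 0.23, a call lost after thinning). Chac2 fell by 1.13 and Mgst3 by 0.92, and library totals ended both calls, thinning that of Mgst3, and the GC correction that of Chac2.

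Of 14 lipid peroxide and ferroptosis genes 12 were tested, 6 higher and 2 lower (19.7% and 17.8% over all genes, median 0.43), and 6 and 1 with library totals. Aifm2, which encodes the ferroptosis suppressor FSP1, rose by 2.28 ± 0.53, the transferrin receptor Tfrc by 1.69 ± 0.48 (not without the lipid-associated macrophage-like class) and Por by 1.64 ± 0.17. Alox5ap fell by 0.96 (SE 0.07), from 1864 and 1820.3 CPM to 1242 and 1163. Acsl4, whose enzyme activates polyunsaturated fatty acids, fell by 0.75, a call lost with library totals and with the GC trend removed. Of 20 selenoprotein genes and genes of their synthesis 19 were tested, 7 higher and 3 lower (19.7% and 17.8% over all genes, median 0.20, also with Gpx3 at its bound), and 9 and 1 with library totals. Sep15 (Selenof) rose by 1.58 ± 0.13 and Sepw1 (Selenow) by 0.85 ± 0.13, the latter not with the GC trend removed. Pstk fell by 1.65 (SE 0.33), and Sepp1 (Selenop) and Selt (Selenot) by 0.46 each, the latter 2 neither with library totals nor with the GC trend removed. All 19 autophagy receptors and partners were tested, and 6 were higher and none lower (median 0.29), and 11 and none with library totals. With 37.5% of all genes called in these cells, 6 of 19 is near the background. Tfeb rose by 1.55 ± 0.21, Map1lc3a by 1.40 ± 0.25, Gabarapl1 by 1.07 ± 0.19 and Atg12 by 0.81 ± 0.20, with the call lost for Map1lc3a when the GC trend was removed and for Atg12 after thinning.

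Markers of other cells were also measured in the monocytes and macrophages. The 10 Kupffer cell markers summed to 86.1 and 233 CPM on NCD and 12.8 and 16.2 on MCD, with 8 of 9 tested lower on MCD. The 11 endothelial markers summed to 138 and 165 against 41.7 and 95.8, the 13 hepatocyte markers to 130 and 103 against 211 and 228, and the 10 neutrophil markers to 284 and 131 against 194 and 158. Of the eosinophil markers Prg2, Epx and Ear1 were at 0 in all libraries and the 8 together reached at most 14.8 CPM. The 12 markers of lipid-associated macrophages summed to 1186 and 1197 against 4495 and 3957, with 10 of them higher. The part of these markers in the results was not tested, other than by the sums without the lipid-associated macrophage-like class.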

How the data were processed

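Per the submitters' processing notes and the file headers, the authors counted UMIs per gene and barcode with Cell Ranger 3.0.2 against mm10, and deposited these counts with no normalization. No source used here gives the settings of cell calling. The 27998 genes common to the 4 feature tables were used. Barcodes with 200 genes or more and no more than 10% mitochondrial UMIs were kept, scaled to 10000 counts and log transformed, and 2000 variable genes, 30 principal components and 15 neighbours went into Leiden clustering at resolution 1 within each diet (scanpy 1.11.5, leidenalg 0.10.2, Python 3.11.15). A cluster was named when at least 3 of its 50 leading genes, 1 of them in the first 10, came from 1 of 24 marker lists. No doublet caller was run, so doublets were not removed.

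Counts were summed per class and library, with at least 20 cells in each, and tested with edgeR 4.0.16 (filterByExpr, TMM, glmQLFit and glmQLFTest, R 4.3.3), 2 libraries per diet, threshold 0.05. The genes, lists and markers were chosen with earlier results of these data known. The text names all 10 genes, from each list up to 4 genes with the largest change among those that passed plus those that passed against the list's main direction, the regulators Nfe2l2, Keap1 and Bach1, and the 2 genes most like each of the 10. One gene that this rule names is not reported here. On simulated counts for 10793 genes of the monocytes and macrophages, 58% of 2-fold and 84% of 4-fold changes were recovered and 3 unchanged genes were called. The simulation gave all genes a common dispersion and changed few of them, evenly up and down. In the data 37.5% of these genes passed, so the simulated figures may not carry over. Alternatives were DESeq2 1.42.0, other scalings and filters, leaving out each library, a replicate block, thinning, removal of a GC trend and other clusterings. Those without the top 5% of cells by UMIs and with all libraries clustered together were chosen after seeing the data. Sequence copies were searched with BLAST+ 2.17.0.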

Additional observations from a re-analysis of the deposited data

Results flagged for a closer look

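The rise of Prdx5 on MCD differed between the Ly6Clo-like and the Ly6Chi-like monocytes by 0.97 on the log2 scale, by a test of the difference itself (edgeR adjusted p = 0.00188). It was larger in the Ly6Clo-like cells, which had 91.6 and 119 CPM on NCD and 882 and 895 on MCD, against 243 and 219.9 and then 1133 and 1136 in the Ly6Chi-like cells. Leaving out each library in turn gave 0.81 to 1.41, and all of these passed. Thinning every cell to 1000 UMIs left the size at 0.97 and the edgeR adjusted p at 0.17, with 7 of the 10 genes tested. In the Ly6Clo-like cells the 12 Ly6Chi monocyte markers summed to 7438 and 7372 CPM on NCD and 17394 and 20034 on MCD. The part of these marker levels in the Prdx5 difference was not tested.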

How the results depend on the processing

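Over 93 results, 1226 alternative values were computed. Of these, 1104 were classed as the same, 82 kept direction but lost the call, 35 gained one and 5 were classed as reversed. Values that passed in neither fit could change sign and still be classed as the same. With each library left out in turn, the median log2 fold change of the genes tested was 1.58 to 2.28 in the monocytes and macrophages (1.97 with all libraries). It was 0.55 to 1.39 in the Ly6Chi-like monocytes (0.57), 0.82 to 1.32 in the Ly6Clo-like monocytes (1.16) and 1.59 to 2.56 in the C1q macrophage-like cells (1.67). Over all retained cells it was 1.40 to 1.49 (1.46), and the median difference for the class by diet term was −0.18 to 0.58 (0.34). In each of these groups a smaller share of all genes passed when an NCD library was left out. The lone library then left in a diet is assumed to vary like the other diet's pair. DESeq2 called 2 in the Ly6Clo-like monocytes, where it called 9.77% of all genes in place of 23.6%. Thinning gave 4 in the C1q macrophage-like cells and 0 for the class by diet term, where 24.1% and 1.03% of all genes passed. It gave 11 in the other classes, where 14.3% to 53.8% of all genes passed by class and none of the 10 genes could be tested in NK-like cells. Clusters from all libraries together gave 5 in the C1q macrophage-like cells, where 15.3% of all genes passed. The longer motif was in 1 gene in place of 4. With clusters made without the listed genes, Gclm was at −0.28, Gclc at −0.026 and Prdx1 at −0.29 in the monocytes and macrophages, where the sums held C1q macrophage-like cells on NCD alone. With library totals Prdx1 was at 0.13 in the Ly6Chi-like and 0.40 in the cDC2-like cells. With clusters made without the listed genes no fit could be made for the C1q macrophage-like cells, since no MCD cluster took that name.

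The labels do not say whether libraries of the same number are paired. The deviations of the libraries numbered 1 from their diet means had r = −0.02 over 10793 genes, which cannot decide it. With the replicate number as a block, 10 of the 10 genes passed in the monocytes and macrophages, beside 39.3% of all genes. The counts were 6 in the Ly6Chi-like (33.5% of all genes), 4 in the Ly6Clo-like (24.0%) and 8 in the C1q macrophage-like cells (16.9%). Over all retained cells 8 passed (56.9%), and 21 in the other classes (8.04% to 33.3% by class). On NCD, depth limits Nqo1 (1 UMI) and Srxn1 (10 UMIs) in the monocytes and macrophages together. It limits further genes in single classes. Gpx4 had 1 and 8 UMIs in the Ly6Clo-like monocytes of NCD 1 and NCD 2. In the C1q macrophage-like cells Gpx4 had 7 and 1, Gclm 2 and 5 and Txnrd1 7 and 12.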
